A study of Macaca mulatta with 6 samples.

Results

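Cytosolic ribosomal protein genes were followed across 6 libraries of rhesus monkey induced pluripotent stem cells (iPSCs). Members were the rows whose gene symbol in the deposited tables names a large-subunit (RPL), small-subunit (RPS) or stalk (RPLP) protein, or RPSA, and where a symbol had several rows the one with the highest mean level was kept. This gave 62 members of 30246 gene rows. The symbols matched 74 rows, so 12 extra rows were set aside, 1 for each of RPL7A, RPL8, RPL11, RPL12, RPL13A, RPL35, RPL35A, RPLP2, RPS12, RPS13, RPS16 and RPS28. Of the 62 members 55 passed the filter for testing, which asked for at least 1 FPKM in at least 2 libraries. FPKM divides a gene's fragments by transcript length and by the library's mapped fragments, so levels are per length. The other 7 were RPL10L, RPL24, RPL30 and RPS24, listed at 0 in every library, and 3 that stayed between 0 and 1.05 FPKM, RPL34 and RPL3L among them. The RPL34 row spans 391 bp and rests on 0 to 3 effective fragments, so its low values may not be those of the gene it is named for. For RPL24, RPL30 and RPS24 the zeros are those of short rows, since a separate table of gene names gives each a long row, at 1106 to 1364 FPKM for RPL24, 1866 to 2733 for RPL30 and 2359 to 3143 for RPS24 over the 6 libraries.

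The study set naive against primed iPSCs. Naive cells resemble the epiblast before implantation and primed cells the later epiblast. Its 3 groups were naive female lines, naive male lines and primed male lines, with n = 2 libraries in each, and all were iPSCs made from fibroblasts. Both naive groups were grown in 15% knockout serum replacement with 4 ng/ml bFGF, 10 ng/ml LIF, 3 µM CHIR99021 (a GSK3 inhibitor), 0.5 µM PD0325901 (a MEK inhibitor), 10 µM SB203580 (a p38 inhibitor) and 10 µM SP600125 (a JNK inhibitor). The primed lines were grown in 20% knockout serum replacement with bFGF. Feeder cells were removed and colonies collected before total RNA was extracted. No female primed line was included, so the naive female lines differ from the primed lines in both sex and state. The labels do not tie lines to donors, and p-values therefore measure only the spread between these lines.

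Each cytosolic ribosome holds 1 copy of nearly every ribosomal protein, on a small subunit that reads the message and a large subunit that joins the amino acids. The messages of these proteins are among the most abundant in growing cells, and most carry a terminal oligopyrimidine (TOP) start through which mTOR signalling controls their translation. Ribosomal protein genes are also known for their many processed pseudogenes, intronless copies made from spliced messages, which are near-identical to the parent gene and can share its reads.

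The libraries differed in depth and in how their signal fell over short rows. The files hold no read counts, and the fragments behind a value were estimated from its deposited error bounds. These effective fragments summed to 8294782 and 10013491 in the naive female libraries, 1754857 and 1478692 in the naive male libraries, and 9970137 and 7607125 in the primed libraries. Short rows, those whose start and end lie under 1500 bp apart, took 27.4% and 23.4% of all FPKM in the naive female libraries, 33.9% and 35.7% in the naive male libraries, and 21.6% and 26.8% in the primed libraries. Of 10 fibroblast and feeder markers 9 had a row, none of them at 0 in all libraries, and their summed FPKM was 402 and 545 in the naive female, 580.2 and 474 in the naive male, and 673 and 753 in the primed libraries. Among them limma called vimentin (VIM) lower in naive than in primed lines (-0.99, SE 0.15), and at an unadjusted p under 0.05 another 2 were higher. In naive female against primed lines it called VIM lower (-1.52, SE 0.17) and THY1 higher (2.86, SE 0.63), so the markers did not move together. Of 6 pluripotent markers 5 had a row. They summed to 935 and 1385 in naive female, 779 and 845 in naive male, and 429 and 339 in primed libraries. These markers did not move together either. In naive against primed lines limma called 1 higher and none lower, 2 differences were negative and the median was 0.06. In naive female against primed lines 3 of the 5 were negative, with a median of -0.24. The part of depth, of the short-row share and of the fibroblast markers in the results below was not tested, and in bulk RNA fewer cells of a type and less RNA per cell cannot be told apart.

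The members fall into rows of very different kind. A ribosomal protein gene with introns spans far more of the genome than its message is long, whereas an intronless copy spans the message alone. Of the 62 members 42 spanned 1500 bp or more and are called long rows here, and 20 were shorter, 19 of them under 1000 bp. The table of gene names held the identifiers of 35 of the 42 long members but of only 1 of the 20 short ones, RPS28. Whether a short row is the named gene or an intronless copy of it was not tested, so values of RPL34 above and of RPS26, RPL37, RPS25, RPS27, RPS6, RPL36 and RPL17 below are those of rows that may not be the parent gene. Of the 62 member symbols, 36 identifiers were in that table and 35 carried the same symbol there. The exception was the RPS15A row, whose identifier stands under ARL6IP1. Of 77 standard names of cytosolic ribosomal proteins, 57 had a row under the file's own symbol and 14 more were named only by the gene table, among them RPL5, RPL10, RPL18, RPL38, RPL39, RPSA, RPS2, RPS4X and RPS27A. RPL21, RPL29, RPL36A, RPL41, RPS10 and RPS18 are not analysed here. The gene table named 27 ribosomal protein rows beyond the members, of which 21 were long and 26 were tested. They are given beside the members and not counted among them.

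Among the 41 tested long members the mean level over the 6 libraries ran from 104 FPKM (RPL28) to 2854 FPKM (RPL27A), with a median of 1614. RPL27A, a large-subunit protein, had 3167 and 2703 FPKM in naive female, 2717 and 2697 in naive male, and 2921 and 2921 in primed libraries. RPS12, on the small subunit, followed at a mean of 2786 FPKM. RPLP0 (the stalk's base), RPL26 and RPL3 (which helps to form the peptidyl transferase center) came next, at means of 2476, 2453 and 2403 FPKM. The ranges of neighbours in this order overlapped, from 2697 to 3167 for RPL27A, 2573 to 3223 for RPS12 and 2135 to 3179.9 for RPLP0, so their order is not set apart by the spread. The gene table's RPL38 row stood above all members, at 5149 and 4958 FPKM in naive female, 5869 and 5695 in naive male, and 6420.3 and 5727 in primed libraries.

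The 14 tested short members had means from 24.7 FPKM (RPL39L) to 2381 FPKM (RPS20), with a median of 233. RPS20 spans 1416 bp and behaved in level like the long rows. So did shorter rows such as RPL14 (639 bp) and RPS28 (882 bp), at means of 1611 and 1235 FPKM. RPS26, RPL37, RPL19, RPL17 and RPS6 were the lowest of the rest, with means of 60.2, 62.6, 75.5, 127 and 129 FPKM. RPL39L, a germ-cell-enriched paralog of RPL39, was listed at 0 in 1 naive male and 1 primed library, and its values of 27.8 and 27.3 FPKM in naive female libraries and of 65.0 and 28.2 in the other naive male and primed libraries rest on 2 to 5 effective fragments each.

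**Figure D1:**
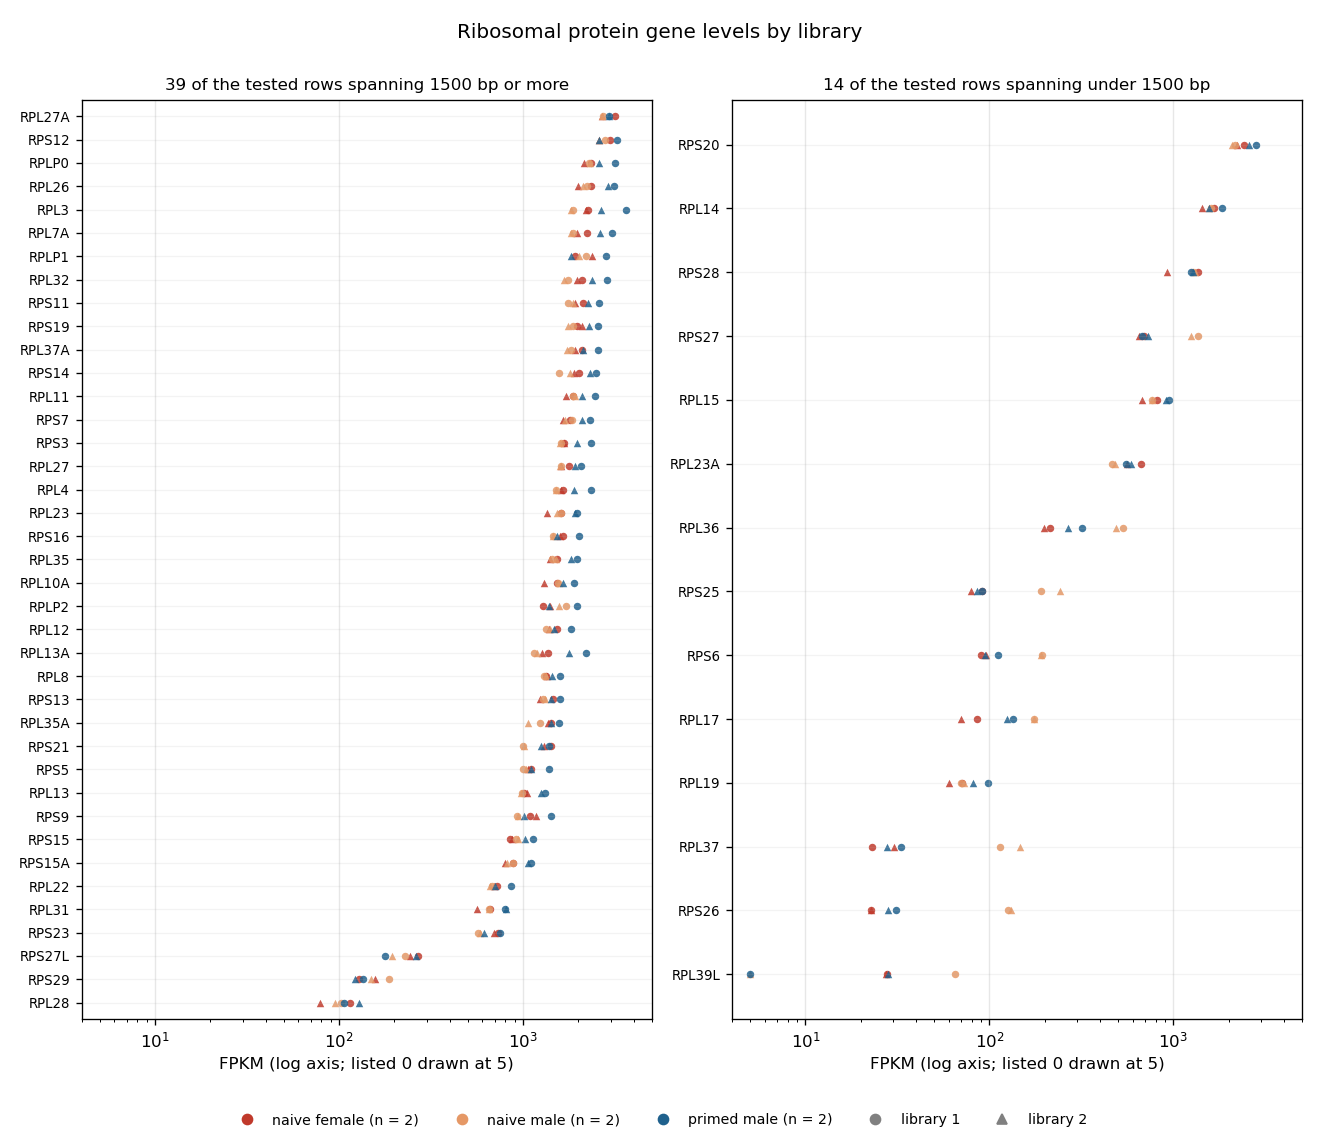
FPKM of 53 of the 55 tested members in each of the 6 libraries on a log axis, with long rows (left) and short rows (right) ordered by mean; red, orange and blue mark naive female, naive male and primed male libraries (n = 2 each), circles library 1 and triangles library 2, and a value listed at 0 is drawn at 5. Primed library 1 is the rightmost point for 33 of the 39 long members drawn, and the naive male points stand to the right for RPS26, RPL37, RPS25, RPS6, RPL36 and RPS27.

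The members together took up a smaller part of the summed FPKM in naive than in primed lines. They made up 10.1% and 10.2% of it in naive female libraries, 8.61% and 8.21% in naive male libraries, and 13.5% and 11.2% in primed libraries, or 10.2% ± 0.0159 in naive female, 8.41% ± 0.279 in naive male and 12.3% ± 1.63 in primed lines (SD, n = 2 each). Every naive library was below both primed libraries. Long members followed this order, at 8.99% and 9.11% in naive female, 7.45% and 7.12% in naive male, and 12.1% and 9.95% in primed libraries. Short members held 1.16% and 1.06% in naive female, 1.16% and 1.10% in naive male, and 1.33% and 1.21% in primed libraries. In this share their naive libraries were also all below the primed ones, but stood closer to them. A lower share need not be a lower level, since the total was largest in the naive male libraries. Row by row, both naive male libraries were above both primed ones for 8 of the 14 tested short members (57.1%, against 44.0% of all tested short rows). They were below for 4 (28.6%, against 17.1%). The summed FPKM itself differed, at 712352 and 662268 in naive female, 788398 and 811495 in naive male, and 666061 and 693877 in primed libraries. The members summed to 72268 and 67336 FPKM in naive female, 67858 and 66650 in naive male, and 89651 and 77407 in primed libraries. These naive sums were all below the primed ones, and the naive groups overlapped.

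These shares move with what is counted in the total. Rows spanning under 300 bp took 16.0% and 11.7% of the FPKM in naive female, 22.3% and 24.4% in naive male, and 9.32% and 14.9% in primed libraries. With those rows left out of the total, the members held 12.1% and 11.5% in naive female, 11.1% and 10.9% in naive male, and 14.8% and 13.1% in primed libraries. The naive libraries were still below the primed ones, and the gap between naive female and naive male libraries narrowed. With the rows named by the gene table added, the shares were 15.4% and 15.2% in naive female, 13.4% and 12.9% in naive male, and 20.2% and 17.0% in primed libraries. Share values are a description and carry no test.

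Gene by gene, most members had lower values in naive than in primed lines, and few of the differences passed the test over all rows. In limma's fit to log2(FPKM + 1), the naive value being the mean of the naive female and naive male means, 46 of 55 tested members had a negative difference. The median was -0.25, against 0.03 over all 13685 tested rows. All 4 naive libraries were below both primed libraries for 29 members (52.7%), against 15.9% of all tested rows, and for no member were they all above, against 18.9%. At an adjusted p under 0.05 limma called 3 members higher and 2 lower, with 6.72% of tested rows called higher and 4.59% called lower, so the called share of members was close to the background. At an unadjusted p under 0.05 there were 30 of the 55 members, 25 of them lower. Over all 13685 tested rows there were 4235 (30.9%), 1882 of them lower. The members' differences thus lay mostly on the same side, though few passed the adjusted threshold. The median difference ran from -0.36 to -0.17 over the alternatives tried.

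Primed library 1 weighs in this result. It was the highest of the 6 libraries for 35 of the 41 long members, and it exceeded primed library 2 for 37 of them, with a median ratio of 1.14. Without it the median difference of the members was -0.17, against 0.02 over all tested rows. Without primed library 2 it was -0.35, against 0.04. Without naive female library 1 or 2 the members' median was -0.27 and -0.23, and without naive male library 1 or 2 it was -0.26 and -0.25. With any 1 library left out, the calls over all tested rows fell below the 1548 of the main fit. A loss of member calls there is therefore not particular to the members. With the 4 naive lines taken as 1 group regardless of sex limma called 0 members, with 21 at an unadjusted p under 0.05. Over all tested rows it called 250 in that fit.

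Long and short rows differed in their values. Of the 41 long members 39 had a negative naive-minus-primed difference, with a median of -0.29, and for 26 (63.4%) all naive libraries were below both primed libraries. The background for such separation was 16.6% of all tested long rows. Limma called 2 long members lower and none higher, against 4.62% and 6.02% of all tested long rows, so the 4.88% called lower was close to the background. At an unadjusted p under 0.05 there were 22, all lower, against 3676 of all 12090 tested long rows, 1703 of them lower. Highly expressed long rows in general did not share this sign: the 702 tested long rows outside the family with a mean of 100 FPKM or more had a median of 0.17. The 14 short members had a median of 0.04, with 7 differences on each side of 0, and limma called 3 of them higher and none lower. All tested short rows had a median of 0.17, above that of the short members, with 192 of 1595 called higher and 69 lower.

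The large-subunit members are the largest group. Of 27 tested 25 had a negative difference, the median was -0.29, and limma called 1 higher (3.70%) and 2 lower (7.41%), against 6.72% and 4.59% of all tested rows. RPL13A, which outside the ribosome is known for silencing inflammatory messages in human myeloid cells, lies at chromosome 19:55749375-55754039 in the files' coordinates, whose genome build is not given in the sources used here. It had 1365 and 1273 FPKM in naive female, 1141 and 1184 in naive male, and 2194 and 1771 in primed libraries. All 4 naive libraries lay below both primed ones. RPL13A fell by 0.67 on the log2 scale in naive lines (SE 0.13, limma adjusted p = 0.0284), and the adjusted p exceeded 0.05 when any 1 of 5 libraries (all but primed library 2) was left out, between 0.0762 and 0.0993.

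RPL7A, a large-subunit protein at chromosome 15:5196698-5199673, had 2214 and 1954 FPKM in naive female, 1861 and 1832 in naive male, and 3033 and 2619 in primed libraries. Its groups did not overlap either. It fell by 0.52 (SE 0.12, limma adjusted p = 0.0478), close to the threshold, and lost the call when any 1 of 5 libraries (all but primed library 2) was left out, at adjusted p between 0.0892 and 0.146. RPL3 had 2244 and 2203 FPKM in naive female, 1874 and 1828 in naive male, and 3616 and 2656 in primed libraries, a difference of -0.61 (SE 0.15) with a limma adjusted p of 0.0529. Primed library 1 stood well above all others for RPL3.

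Several other large-subunit proteins gave values of the same sign without a call. RPL11 binds MDM2 together with RPL5 when ribosome assembly fails. RPL11 had 1879 and 1708 FPKM in naive female, 1881 and 1924 in naive male, and 2456 and 2085 in primed libraries, a difference of -0.29 (SE 0.12, limma adjusted p = 0.165). The gene table's RPL5 row had 763 and 627 FPKM in naive female, 745 and 779.5 in naive male, and 869 and 869 in primed libraries, a difference of -0.26 (SE 0.12, limma adjusted p = 0.192). In both, every naive library lay below both primed libraries. RPL26, which sits near the exit of the nascent chain tunnel, had 2342 and 1994 FPKM in naive female, 2219.7 and 2123 in naive male, and 3136 and 2906 in primed libraries, a difference of -0.48 (SE 0.12, limma adjusted p = 0.0581). RPL22, which has a regulatory relation with its paralog RPL22L1, had 725 and 695 FPKM in naive female, 678 and 664 in naive male, and 859 and 708 in primed libraries, and its groups overlapped (difference -0.18, SE 0.12, limma adjusted p = 0.353).

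RPL27A, the highest member, showed no separation, with a difference of -0.05 (SE 0.12, limma adjusted p = 0.797). RPL28, the lowest tested long member, had 114 and 78.8 FPKM in naive female, 102 and 95.1 in naive male, and 106 and 129 in primed libraries, which overlapped (difference -0.27, SE 0.17, limma adjusted p = 0.340). RPL3L, a paralog that takes the place of RPL3 in heart and skeletal muscle, was listed at 0 in all 4 naive libraries and had 0.118 and 0.0753 FPKM in primed libraries. Those primed values rest on 2 and 1 effective fragments. RPL10L, a testis-expressed copy of RPL10, was listed at 0 throughout.

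In the small subunit 18 of 23 tested members had a negative difference, with a median of -0.22, and limma called 2 higher (8.70%) and none lower, against 6.72% and 4.59% of all tested rows. At an unadjusted p under 0.05, 10 of the 23 were lower, against 1882 of all 13685. The long rows RPS14 and RPS3, shown because all their naive libraries lay below both primed libraries, were chosen after their values were seen. RPS14, whose loss underlies the anemia of the 5q deletion syndrome in humans, had 2012 and 1884 FPKM in naive female, 1571 and 1796 in naive male, and 2482 and 2311 in primed libraries (difference -0.40, SE 0.12, limma adjusted p = 0.0769). RPS3, which lines the entry of the message channel, had 1678 and 1673 FPKM in naive female, 1617 and 1587 in naive male, and 2356 and 1960.0 in primed libraries (difference -0.39, SE 0.12, limma adjusted p = 0.0876). Neither passed the threshold.

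RPS19, the gene most often mutated in human Diamond-Blackfan anemia, had 1961 and 2088 FPKM in naive female, 1860.1 and 1763 in naive male, and 2543 and 2274 in primed libraries. Its naive libraries were all below the primed ones, with a difference of -0.33 (SE 0.11, limma adjusted p = 0.111). RPS12 overlapped between the groups, at 2963 and 2573 FPKM in naive female, 2794 and 2587 in naive male, and 3223 and 2577 in primed libraries (difference -0.08, SE 0.14, limma adjusted p = 0.740). RPS27L, a paralog of RPS27, was at 268 and 244 FPKM in naive female, 229 and 193 in naive male, and 177 and 261 in primed libraries, which overlapped as well (difference 0.11, SE 0.18, limma adjusted p = 0.720).

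The stalk proteins RPLP0, RPLP1 and RPLP2 recruit elongation factors to the ribosome, and limma called none of the 3, with 1 at an unadjusted p under 0.05. RPLP0 had 2341 and 2135 FPKM in naive female, 2281 and 2317 in naive male, and 3179.9 and 2603 in primed libraries, with no overlap (difference -0.34, SE 0.13, limma adjusted p = 0.137). RPLP1 had 1918 and 2364 FPKM in naive female, 2202 and 2024 in naive male, and 2832 and 1819 in primed libraries, and the primed libraries held both its highest and its lowest value (difference -0.10, SE 0.20). RPLP2 had 1291 and 1409.8 FPKM in naive female, 1708 and 1559.9 in naive male, and 1961 and 1389 in primed libraries, also overlapping (difference -0.15, SE 0.16).

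The 3 members called higher in naive than in primed lines were all short rows, and in none of them did the naive libraries as a whole stand above the primed ones. RPS26, a small-subunit protein at the exit of the message channel, is represented by a row of 348 bp at chromosome 15:70415623-70415970. It had 22.8 and 22.6 FPKM in naive female, 126 and 130.5 in naive male, and 31.1 and 28.1 in primed libraries. The naive male libraries stood apart and the naive female libraries were the lowest. The averaged naive-minus-primed difference was 0.86 (SE 0.11, limma adjusted p = 0.0114), and it turned to -0.37 without the naive male libraries. Without naive male library 1 or 2 alone the adjusted p was 0.0577 and 0.0613.

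RPL37, which like RPL11 can bind MDM2, is represented by a row of 291 bp at chromosome 4:53200152-53200442, with 23.0 and 30.1 FPKM in naive female, 114 and 147 in naive male, and 33.1 and 27.9 in primed libraries. RPS25, which initiation at several viral internal entry sites needs, is represented by a row of 378 bp at chromosome 5:125699400-125699777, with 91.3 and 79.4 FPKM in naive female, 191 and 241 in naive male, and 91.5 and 85.7 in primed libraries. In both, the naive male libraries alone were high, and the naive female libraries overlapped the primed ones. The averaged differences were 0.93 (SE 0.17, limma adjusted p = 0.0280) for RPL37 and 0.60 (SE 0.14, limma adjusted p = 0.0414) for RPS25, and without the naive male libraries they turned to -0.20 and -0.06. Leaving out any 1 of the 6 libraries ended the call of both.

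Each naive group was also set against the same pair of primed libraries. The comparisons share those libraries and are not independent. In naive male against primed lines limma called 6 members higher and 1 lower, against a background of 3.97% and 1.42% of tested rows (5.39% in either direction), and the median of the members was -0.28, against 0.09 over all tested rows. All 6 called higher were short rows, 42.9% of the 14 tested short members, against 15.0% of all 1595 tested short rows. The short members had a median of 0.51, against 0.30 over all tested short rows. For 40 members both naive male libraries were below both primed ones (72.7%, against 21.6% of all rows), and for 9 they were above (16.4%, against 34.8%). In naive female against primed lines limma called none higher and 1 lower, against a background of 5.55% and 5.41%. At an unadjusted p under 0.05 there were 19 of 55, all lower. Of all 13685 tested rows 30.6% passed in either direction, 2197 of them lower. The median there was -0.25, against -0.04 over all tested rows, and both naive female libraries were below both primed ones for 32 members (58.2%, against 31.9%) and above for none (27.1%).

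RPL13A was the single member called lower in naive male lines, at -0.76 (SE 0.15, limma adjusted p = 0.0415), beside -0.58 (SE 0.15, limma adjusted p = 0.0564) in naive female lines. The 6 members called higher in naive male lines were RPS26 (2.08, SE 0.13), RPL37 (2.05, SE 0.20), RPS25 (1.27, SE 0.16), RPS27 (0.90, SE 0.12), RPS6 (0.89, SE 0.13) and RPL36 (0.80, SE 0.13), at limma adjusted p from 0.00240 to 0.0285. All 6 span 791 bp or less. For naive female against primed lines the differences were -0.37 for RPS26, -0.20 for RPL37, -0.06 for RPS25, -0.06 for RPS27, -0.15 for RPS6 and -0.50 for RPL36, none of them called. RPS26 kept its call in naive male lines without each library in turn, and RPL13A lost its own without any but primed library 2, at adjusted p from 0.0775 to 0.204. Upper-quartile scaling gave 6 members higher and 8 lower in naive male against primed lines, with 748 of all tested rows called, against 738 in the main fit. With any 1 library left out, the calls over all tested rows fell below 738.

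RPS27, a small-subunit protein with a zinc finger, is represented by a row of 255 bp at chromosome 16:27403188-27403442. It had 689.8 and 651 FPKM in naive female, 1362 and 1243 in naive male, and 674 and 724 in primed libraries. RPS6, the small-subunit protein phosphorylated by S6 kinase downstream of mTOR, is represented by a row of 791 bp at chromosome 19:41787711-41788501, with 90.0 and 95.7 FPKM in naive female, 192 and 189.8 in naive male, and 111 and 94.9 in primed libraries. RPL36, a large-subunit protein, is represented by a row of 318 bp at chromosome 7:38224084-38224401, with 214 and 199 FPKM in naive female, 531 and 488 in naive male, and 318 and 268 in primed libraries. In all 3 rows the naive male libraries were the highest, and for RPL36 the naive female libraries were also below the primed ones.

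RPL17 was the member called lower in naive female than in primed lines. Its member row spans 555 bp at chromosome 15:62234868-62235422 and had 85.1 and 70.0 FPKM in naive female, 174 and 174 in naive male, and 134 and 124 in primed libraries. The 3 groups did not overlap, with naive female lowest and naive male highest. RPL17 fell by 0.73 in naive female lines (SE 0.14, limma adjusted p = 0.0264), and its difference in naive male lines was 0.43 (SE 0.14, limma adjusted p = 0.119). Leaving out any library other than primed library 2 ended the call, and over the 6 libraries left out in turn the difference ran from -0.87 to -0.59. The calls over all tested rows also fell below the 1499 of the main fit each time.

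**Figure D2:**
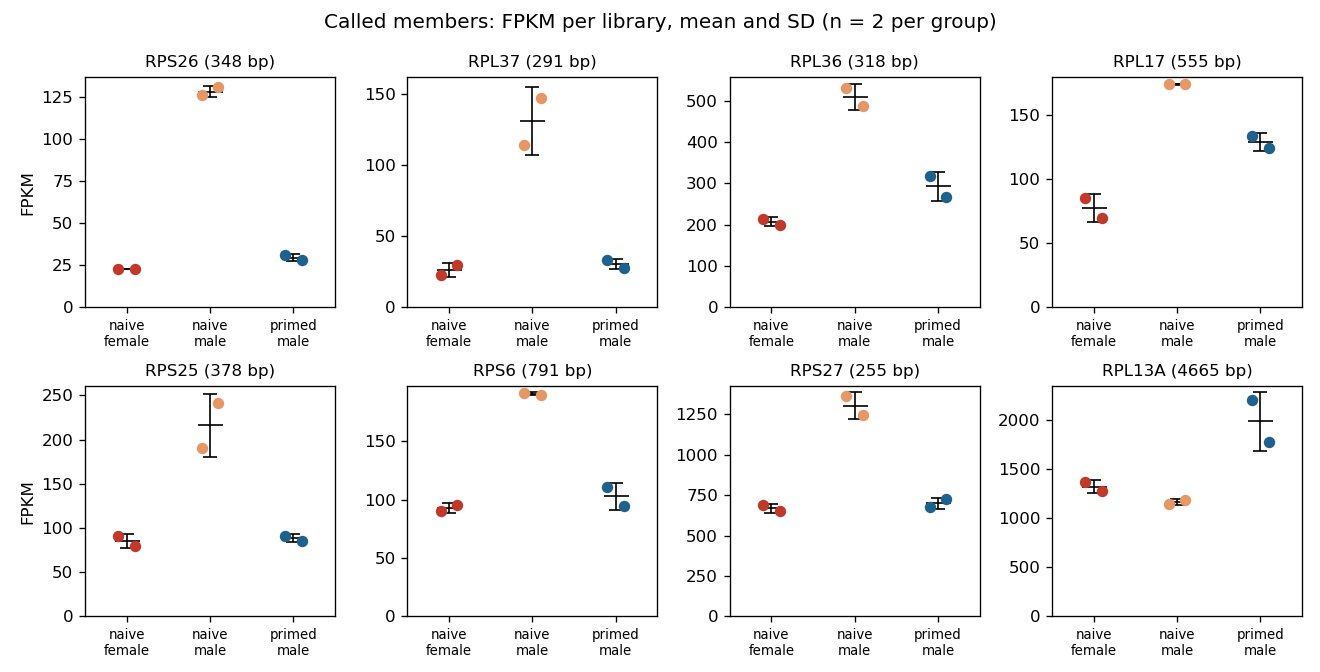
FPKM of 8 of the 9 members called in any comparison, with linear axes from 0, points for libraries, and bars for the mean and SD (n = 2 per group) of naive female, naive male and primed male lines. In the 7 short rows the naive male libraries are the highest, at 126 and 130.5 FPKM for RPS26, whereas for RPL13A both naive groups lie below the primed libraries.

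The naive groups, grown in the same medium, were compared with each other directly. Limma called none of the members higher and 7 lower in naive female than in naive male lines, against 0.760% and 2.55% of tested rows (3.31% in either direction), with 2 higher and 7 lower at an unadjusted p under 0.05. The 7 were RPS26 (-2.44, SE 0.13), RPL37 (-2.26, SE 0.20), RPS25 (-1.32, SE 0.16), RPL36 (-1.30, SE 0.13), RPL17 (-1.16, SE 0.14), RPS6 (-1.03, SE 0.13) and RPS27 (-0.96, SE 0.12), at limma adjusted p from 0.00128 to 0.0156. RPS26 kept its call without each library in turn. Limma called 1 member without naive female library 1 or naive male library 2, and 2 without naive female library 2 or naive male library 1.

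All 7 are short rows. The 14 short members had a median naive female-minus-male difference of -0.59 and the 41 long members one of 0.08, with 29 long members positive. For 22 long members both naive female libraries were above both naive male ones (53.7%, against 20.0% of all tested long rows). Over all members they were above for 24, against 19.4% of all tested rows, and below for 11, against 37.6%. Limma called no long member, and 1 had an unadjusted p under 0.05. The median of all tested short rows was -0.29 and that of all tested long rows -0.09, so short rows outside the family had the same sign. Limma called 191 of the 1595 tested short rows lower and 28 higher in naive female than in naive male lines.

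Names with a long and a short row allowed the comparison within a gene name. There were 13 such names among the members, the extra rows and the rows named by the gene table. In naive male against primed lines the short row's difference exceeded the long row's in 12 of 13 names, with a median gap of 1.09 and a range of -0.15 to 3.55. In naive female against primed lines it did so in 6 of 13, with a median gap of -0.05 and a range of -0.33 to 0.21. The pairs were assembled after the values were seen and get no test.

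RPS25 shows this within 1 name. Its long row, named by the gene table, had 1487 and 1303 FPKM in naive female, 1603 and 1559 in naive male, and 1695 and 1522 in primed libraries, a naive male-minus-primed difference of -0.02 (SE 0.13). The short member row stood at 6.14% and 6.09% of the long row in naive female, 11.9% and 15.5% in naive male, and 5.40% and 5.63% in primed libraries. The call in naive male lines was for the short row, and the long row was not called.

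RPL17 has a long row of 12477 bp, with 2399.6 and 2096 FPKM in naive female, 1932 and 2008 in naive male, and 3239.7 and 2992 in primed libraries. The file's own symbol for that row is RPL17-C18orf32, so its span and values may not be those of RPL17 alone. That row fell by 0.57 in naive against primed lines (SE 0.12, limma adjusted p = 0.0355), where the short member row had a difference of -0.15 (SE 0.12, limma adjusted p = 0.428). The short row was 3.55% and 3.34% of the long one in naive female, 9.0% and 8.65% in naive male, and 4.14% and 4.14% in primed libraries. For RPS27A, which is made fused to ubiquitin, a row of 471 bp had 0.127 and 0.523 FPKM in naive female, 11.9 and 11.4 in naive male, and 0.209 and 0.267 in primed libraries, on 0.500 to 10.0 effective fragments. Its long row had 2581 and 2302 FPKM in naive female, 2171 and 2142 in naive male, and 2590.4 and 2383 in primed libraries, with overlapping naive and primed libraries.

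RPL7A and RPS12 repeat the pattern between a long member and its short extra row. The RPL7A extra row of 801 bp was 1.77% and 1.65% of the member in naive female, 3.87% and 4.12% in naive male, and 1.85% and 1.83% in primed libraries. The RPS12 extra row of 399 bp had 7.34 and 7.97 FPKM in naive female, 27.2 and 30.5 in naive male, and 9.09 and 6.39 in primed libraries, a naive male-minus-primed difference of 1.79 (SE 0.21, limma adjusted p = 0.0112). RPL15, RPL19 and RPL35 did not follow it. The short RPL35 row was 6.97% and 11.1% of the long one in naive female, 9.12% and 9.48% in naive male, and 9.91% and 6.19% in primed libraries. For RPL19 the naive male gap between short and long row was 0.06. The short RPL15 member row of 615 bp was at 124% and 119% of the long row in naive female, 122% and 107% in naive male, and 125% and 128% in primed libraries. Of the 12 extra rows 11 are short, and of the 6 that were tested limma called RPS12 and RPL35A higher in naive male than in primed lines. All 6 are short, and the calls are 33.3% of them, against 15.0% of all tested short rows called higher there.

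**Figure D3:**
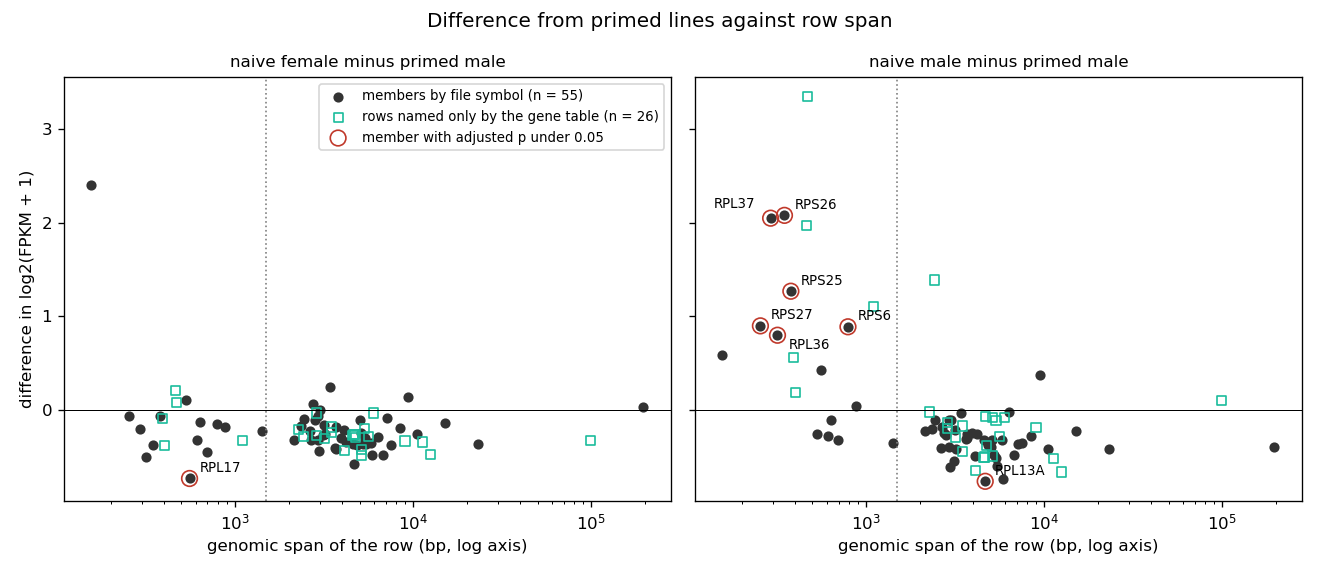
Difference in log2(FPKM + 1) from the primed lines against genomic span (log axis), for naive female lines (left) and naive male lines (right); filled points are the 55 tested members, open squares the 26 tested rows named only by the gene table, red rings members with an adjusted p under 0.05, and the dotted line stands at 1500 bp. Long rows lie mostly below 0 in both panels, with medians of -0.27 (left) and -0.32 (right) for the long members, and in the right panel RPS26 and RPL37 stand at 2.08 and 2.05 among the short rows.

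The rows that the gene table adds to the family gave similar values where they were long. The 21 long ones had a median naive-minus-primed difference of -0.26, 20 of them negative. Limma called 2 lower (9.52%) and 1 higher (4.76%), against 4.62% and 6.02% of all tested long rows. Those lower were RPL17, above, and RPL18, at 1412 and 1269 FPKM in naive female, 1151 and 1176 in naive male, and 1967 and 1666 in primed libraries (-0.54, SE 0.12, limma adjusted p = 0.0422). The file's own symbol for the RPL18 row is DBP, a neighbouring gene's name, so the assignment rests on the gene table. The one called higher was RPS2, with 112 and 123 FPKM in naive female, 373 and 381 in naive male, and 149 and 137 in primed libraries (0.55, SE 0.10, limma adjusted p = 0.0260). With a span of 2410 bp this row moved like the short rows, high in naive male lines alone. The 5 tested short rows had a median of 0.40, and limma called 2 higher, the RPS27A row of 471 bp and a second RPS27 row, of 465 bp. That RPS27 row had 522 and 504 FPKM in naive female, 1777 and 1692 in naive male, and 426 and 458 in primed libraries (1.09, SE 0.10, limma adjusted p = 0.00787). It was the only tested row among the members, the extra rows and the rows added by the gene table in which all 4 naive libraries lay above both primed ones. Its values rest on 35.0 to 81.0 effective fragments. The naive female-minus-primed difference was 0.21 (SE 0.11, limma adjusted p = 0.260), beside 1.97 (SE 0.11) in naive male lines.

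The X-linked members of this set were mixed. RPL10, among the last proteins to join the large subunit, had 1513 and 1429 FPKM in naive female, 1279 and 1320.3 in naive male, and 2089 and 1666 in primed libraries (difference -0.43, SE 0.13, limma adjusted p = 0.0824). RPL39, at the exit tunnel, had 1932 and 1596 FPKM in naive female, 1736 and 1739 in naive male, and 2553 and 2338 in primed libraries (difference -0.48, SE 0.13, limma adjusted p = 0.0595). RPS4X, which escapes X inactivation in humans, had 1915 and 1115 FPKM in naive female, 1778 and 1927 in naive male, and 1731 and 2197 in primed libraries. The naive female lines held both the lowest value and one near the top, so RPS4X was not higher as a group in female than in male lines (difference -0.34, SE 0.27, limma adjusted p = 0.523). The file's symbol for that row is RPS4Y2, and RPS4Y1 is not analysed here. The long RPSA row, the small-subunit protein also known as the laminin receptor precursor, overlapped between all groups at 1889.9 and 1343 FPKM in naive female, 1514 and 1556 in naive male, and 1525 and 1725 in primed libraries.

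Paralogs and fusion partners of the family outside the rule were given in any case. FAU encodes a ribosomal protein fused to a ubiquitin-like protein. FAU had 815 and 855 FPKM in naive female, 705 and 724 in naive male, and 1108 and 822 in primed libraries, which overlapped (difference -0.31, SE 0.14, limma adjusted p = 0.204). RPL22L1, the paralog of RPL22, had 565 and 323 FPKM in naive female, 511 and 455 in naive male, and 318 and 369.9 in primed libraries (difference 0.40, SE 0.23, limma adjusted p = 0.281). RPL7L1 and RPL26L1 had differences of 0.23 (SE 0.18) and 0.08 (SE 0.16), neither called. The RPL36AL row, of 321 bp, had 52.9 and 41.0 FPKM in naive female, 151 and 115 in naive male, and 64.6 and 61.0 in primed libraries. It was called higher in naive male than in primed lines (1.06, SE 0.19, limma adjusted p = 0.0344) and showed the naive male pattern of the short members.

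Other parts of the protein synthesis machinery were set beside the members. Elongation factors and further TOP messages, which share the mTOR-responsive start of ribosomal protein messages, had a median naive-minus-primed difference of -0.24 over 17 tested genes, 15 of them negative. Limma called none, with 5 at an unadjusted p under 0.05, all lower. EEF1A1, which delivers aminoacyl-tRNA, had 7619 and 7165 FPKM in naive female, 6174 and 6328 in naive male, and 9627 and 8797 in primed libraries (difference -0.44, SE 0.13, limma adjusted p = 0.0826). EEF2, the translocation factor, had 649.5 and 736 FPKM in naive female, 697 and 715 in naive male, and 1357 and 846 in primed libraries (difference -0.62, SE 0.20, limma adjusted p = 0.0943). In both genes all naive libraries were below both primed ones. TPT1 overlapped, with a difference of -0.15 (SE 0.12, limma adjusted p = 0.448). Among 12 mTOR pathway genes limma called none, with 2 at an unadjusted p under 0.05, both lower, and the median was -0.04.

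Genes that build ribosomes had the opposite sign. Of 41 tested ribosome biogenesis genes limma called 10 higher and none lower in naive than in primed lines (24.4%, against 6.72% of tested rows called higher), 39 differences were positive and the median was 0.42. LYAR, a nucleolar factor of ribosomal RNA processing, had 71.8 and 63.8 FPKM in naive female, 64.0 and 59.7 in naive male, and 34.7 and 33.1 in primed libraries, and rose by 0.91 (SE 0.11, limma adjusted p = 0.0105). NOP58, a core protein of the box C/D particles that methylate ribosomal RNA, had 127 and 117 FPKM in naive female, 131 and 130.0 in naive male, and 81.2 and 73.4 in primed libraries and rose by 0.70 (SE 0.10, limma adjusted p = 0.0159). Both naive groups lay above the primed libraries in both genes. NOP16 (0.87, SE 0.17), TSR1 (0.84, SE 0.17) and GNL2 (0.59, SE 0.10) also rose, at limma adjusted p from 0.0240 to 0.0334. The rising genes named here are among the 10 called, and their differences exceed the list's median of 0.42. The NPM1 row, of only 684 bp, overlapped between the groups (0.21, SE 0.16, limma adjusted p = 0.422).

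MYC, a transcription factor that drives ribosome biogenesis, had 37.0 and 59.4 FPKM in naive female, 18.6 and 17.4 in naive male, and 1.22 and 3.70 in primed libraries. It rose by 3.22 on the log2 scale in naive lines (SE 0.34, limma adjusted p = 0.00966). Naive female libraries were the highest and primed libraries the lowest for MYC, whereas 26 of the 41 long members had all naive libraries below both primed ones.

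Ribosomal proteins of the mitochondrion, encoded in the nucleus, also differed in sign from the cytosolic ones. Of 65 tested limma called 9 higher (13.8%, against 6.72% of tested rows) and none lower, 57 differences were positive and the median was 0.24. MRPL3 had 72.6 and 61.9 FPKM in naive female, 71.8 and 76.5 in naive male, and 46.1 and 42.4 in primed libraries, and rose by 0.66 (SE 0.12, limma adjusted p = 0.0258). MRPS30 had 59.9 and 49.0 FPKM in naive female, 53.5 and 55.0 in naive male, and 35.0 and 34.9 in primed libraries and rose by 0.62 (SE 0.12, limma adjusted p = 0.0322). MRPL3 and MRPS30 are among the 9 called, and their differences exceed the list's median of 0.24. The 13 proteasome core genes, another set of abundant housekeeping genes, had a median of 0.45, all 13 positive, with 4 called higher and none lower. The difference between these lists and the members was not tested.

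**Figure D4:**
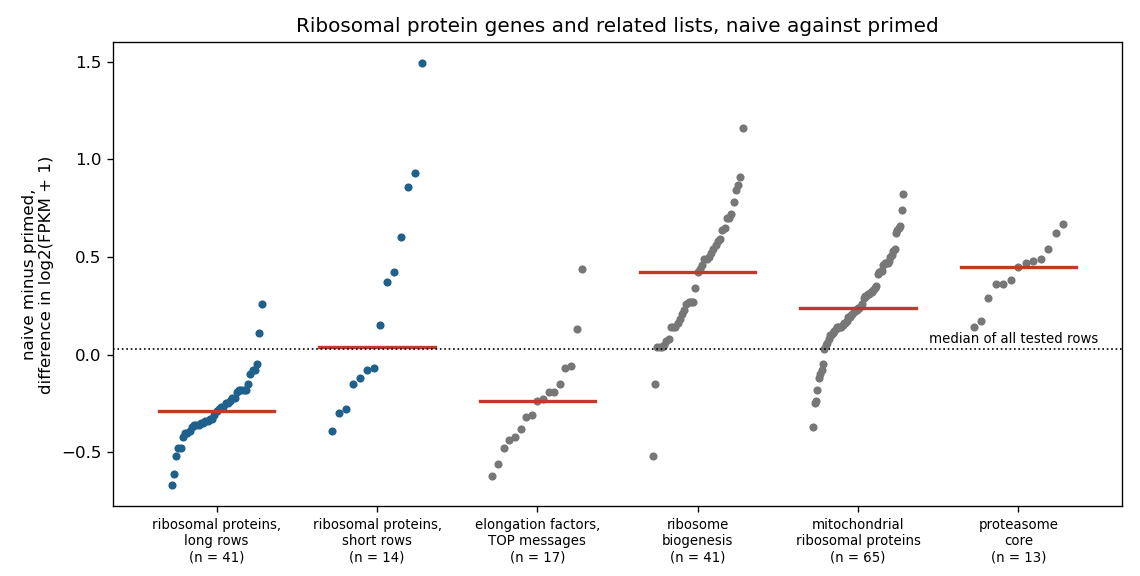
Naive-minus-primed differences in log2(FPKM + 1) for the tested ribosomal protein members, split into long rows (n = 41) and short rows (n = 14), and for 4 related gene lists; each point is a gene, red bars are medians and the dotted line is the median of all tested rows, 0.03. The long members and the elongation factors lie mostly below the dotted line, with medians of -0.29 and -0.24, and ribosome biogenesis, mitochondrial ribosomal protein and proteasome genes mostly above it, with medians of 0.42, 0.24 and 0.45.

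The genes whose level over the 6 libraries was most like the members' profile, the median over the 55 tested members of each one's log2(FPKM + 1) centred on its own mean, were MED12, FAM181A, DPP7, KLHL12 and GRASP, with Pearson's r of 0.994, 0.991, 0.991, 0.990 and 0.989. MED12, a subunit of the Mediator kinase module, had 10.6 and 10.2 FPKM in naive female, 9.79 and 9.79 in naive male, and 17.5 and 13.4 in primed libraries. It shared with the members the high value in primed library 1. These values over 6 points are a description and share the same libraries and their scaling.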

How the data were processed

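RNA sequencing values of 6 libraries were used, grouped by the sample titles and the gender label. The authors deposited FPKM per gene row with a confidence interval and a status flag, in the layout of Cufflinks tracking tables, per the file headers. The aligner was TopHat 1.3.0, per the submitters' processing notes. For the genome build, annotation and quantifier version, nothing is given in the sources used here. FPKM was computed within each library and no scaling between libraries is stated. The summed FPKM is not fixed and ran from 662268 to 811495 over the libraries, so a share of it depends on this total too. Reads that fit several near-identical copies may be split between rows, and the counting rule for them is not stated there either.

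After adding 1 to FPKM and taking log2, group means were estimated with limma 3.58.1 (R 4.3.3), with trended moderation of the variances. A row was tested if its status was never a failure and 2 libraries or more reached 1 FPKM, which held for 13685 of 30246 rows. Calls used a two-sided Benjamini-Hochberg adjusted p under 0.05 over all 13685. For rows of low FPKM the added 1 makes every log2 difference smaller than the true change. Tables were handled in Python 3.11.15. The fit was tested on simulated data.

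Depth is unknown as counts. Effective fragments were obtained by dividing 2 times FPKM by the gap up to its upper bound and squaring. They reflect the deposited error within a library, which may hold more than counting error, and not the spread between lines. They had a median per tested member of 7088 and 8867 in naive female, 1384 and 1140.5 in naive male, and 10783 and 7009 in primed libraries. Row span is the distance between the deposited start and end, and coordinates are given counted from 1.

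The members and gene lists were chosen with earlier results of these data known. The members named were those called (up to 10 in each direction per comparison), the 5 highest and 5 lowest by mean, the 3 symbols with most extra rows (all 12 were tied), and a fixed set of stalk proteins, paralogs and members with known further roles. The lists were elongation factors and TOP messages, ribosome biogenesis, mTOR pathway, mitochondrial ribosomal proteins, proteasome core, and markers of fibroblasts, pluripotent cells and differentiation. The differentiation markers summed to 42.4 and 17.8 FPKM in naive female, 60.2 and 58.1 in naive male, and 69.2 and 59.4 in primed libraries. Alternatives covered the pseudocount, the filter, scaling, left-out libraries, a replicate block, the row taken per symbol, precision weights, short rows and grouping by sex. Same-numbered libraries did not deviate together (correlations of -0.06, -0.05 and -0.263), so numbers were not taken as pairs. The value of -0.263, between naive female and primed libraries, means that opposite-numbered libraries there deviated together to that degree. What they share was not tested. A few members and related genes that the rules gave are not reported here.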

Additional observations from a re-analysis of the deposited data

Results flagged for a closer look

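In 7 members the naive female lines' difference from the primed lines departed from that of the naive male lines by limma's test of the difference itself, which equals the naive female-minus-male contrast. These were RPS26 (-2.44), RPL37 (-2.26), RPS25 (-1.32), RPL36 (-1.30), RPL17 (-1.16), RPS6 (-1.03) and RPS27 (-0.96), on the log2(FPKM + 1) scale. All 7 are rows spanning 791 bp or less, and the naive male libraries were the highest of the 6 in each. The naive male libraries were also the shallowest, with 1754857 and 1478692 effective fragments, and held the largest share of FPKM in rows under 1500 bp, 33.9% and 35.7%. The part of either in these values was not tested, and depth and the naive male group cannot be told apart.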

How the results depend on the processing

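The count of members called in naive against primed lines was the least stable result. Against 5, limma called 15 (2 higher, 13 lower) with upper-quartile scaling, 8 with median-of-ratios scaling, 8 with libraries scaled to rows of 300 bp or more, 9 with precision weights, 1 with no filter, 0 without both naive male libraries (6 at an unadjusted p under 0.05) and 0 with sex ignored (21 at an unadjusted p under 0.05). Over all tested rows it called 1548 in the main fit, 1571, 1505, 1552 and 1971 with those scalings and weights, and 941 with no filter. Without both naive male libraries it called 625 over all tested rows, and with sex ignored 250. With any 1 library left out, the calls over all tested rows fell below 1548. In naive male against primed lines, against 7, it called 14 with upper-quartile scaling, 11 with median-of-ratios scaling and 1 without rows under 1500 bp. Over all tested rows it called 748, 673 and 464 there, against 738 in the main fit. In naive female against primed lines, against 1, it called 3 with upper-quartile scaling, 2 with quantile normalization and 2 with scaling to rows of 300 bp or more. With precision weights it called 4, and without both naive male libraries 0 (6 at an unadjusted p under 0.05). Over all tested rows it called 1577, 1516, 1515, 2671 and 625 in these settings, against 1499 in the main fit. In naive female against naive male lines, against 7, it called 0 without rows under 1500 bp (1 at an unadjusted p under 0.05) and 1 to 7 with 1 library left out. Without both naive male libraries the averaged naive-minus-primed differences of RPS26 (-0.37), RPL37 (-0.20) and RPS25 (-0.06) changed sign. The causes of these changes were not tested, beyond the fewer libraries or rows that some settings leave.

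The replicate block, with library number as a factor, gave 3 calls in naive against primed lines, and 6, 1 and 7 in the other comparisons. The numbers do not pair the lines.

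Scaling moved the median of all tested rows in naive male against primed lines from 0.09 to -0.06 (upper quartile), and the members' median stayed below it, between -0.45 and -0.25 over all alternatives. In naive female against primed lines the members' median ran from -0.35 to -0.11, and in naive female against naive male lines from 0.01 to 0.21. The members' share of FPKM with rows under 300 bp left out of the total was 12.1% and 11.5% in naive female, 11.1% and 10.9% in naive male, and 14.8% and 13.1% in primed libraries, and with all rows of each symbol summed it was 10.2% and 10.2% in naive female libraries. Over the tested members the naive male libraries were the shallowest, with medians of 1384 and 1140.5 effective fragments a member. RPS26 and RPL37 rest on 87.0 effective fragments or fewer in every library.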
